A study of Mus musculus with 6 samples.

Results

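The 10 genes Cpt1a, Cpt2, Acadm, Acadl, Hadha, Fasn, Acaca, Scd1, Scd2 and Fabp5 encode enzymes of fatty acid oxidation, enzymes of fatty acid synthesis and desaturation, and an intracellular fatty acid carrier. They were chosen by name, as the genes whose symbols stand in the array design, and are 10 of the 19321 genes that the design names. Each has 1 probe, and all 10 were detected on all 6 arrays. RNA of sorted T cells from male C57BL/6 mice was hybridised to 1-colour arrays, with 1 array per group, and the labels name no transgene and no treatment for any group. A pair of groups came from old mice (89 weeks per the labels, with a slightly lower age in the study's methods) as fractions of the small intestinal intraepithelial lymphocytes (IEL), labelled cd27cd28 and others. The gates of these fractions are not given, and whether their cells overlapped with the other old IEL sample is not stated. The other groups were IEL CD4+ T cells of old mice, IEL CD4+ T cells of young mice (5 weeks), spleen (SP) CD4+ T cells of old mice and SP CD4+ T cells of young mice, each sorted as CD3+CD4+ cells. Each group used 4 to 6 mice, pooled or not (this is not stated). With 1 array per group there is no spread between animals, no test and no p-value, so every difference given is a difference between single arrays. In bulk RNA, fewer cells of a type and less RNA per cell cannot be told apart.

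Long-chain fatty acids enter mitochondria as carnitine esters. Cpt1a makes these esters at the outer membrane, the step that limits the rate of entry, and Cpt2 turns them back into acyl-CoA inside, where Acadl, Acadm and the trifunctional protein with its subunit Hadha shorten the chain in the cycle known as beta-oxidation. In the opposite direction, Acaca makes malonyl-CoA, which also inhibits Cpt1a, Fasn builds palmitate from it, and the desaturases Scd1 and Scd2 add a double bond. Resting and memory T cells are known for a larger use of fatty acid oxidation, proliferating effector T cells for fatty acid synthesis, and tissue-resident T cells for uptake of outside fatty acids with carriers such as Fabp5.

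Promoter windows from RefSeq (GRCm38.p6), from 250 bases before to 50 bases after the gene start, were matched by symbol for 7 of the 10 genes. The 5 below are shown because their genes carry the differences between sites or ages described here; Hadha and Acaca, which varied least, are left out. Capitals mark the searched motifs on either strand: the NF-Y box CCAAT, the nuclear receptor hexamer AGGTCA, the E-box CACGTG, the GC box GGGCGG and the TATA box TATAAA. The windows are Acadl at chr1:66863260-66863559 (minus strand), Acadm at chr3:153944594-153944893 (minus strand), Cpt1a at chr19:3323051-3323350 (plus strand), Cpt2 at chr4:107923540-107923839 (minus strand) and Fasn at chr11:120824498-120824797 (minus strand), each printed 5′ to 3′.
Acadl: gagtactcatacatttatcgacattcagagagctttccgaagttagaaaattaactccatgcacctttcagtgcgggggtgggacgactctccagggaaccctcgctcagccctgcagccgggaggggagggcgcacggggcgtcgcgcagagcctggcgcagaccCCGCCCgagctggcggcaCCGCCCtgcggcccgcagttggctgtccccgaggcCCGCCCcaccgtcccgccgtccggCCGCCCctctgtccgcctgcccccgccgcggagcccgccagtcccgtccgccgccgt
Acadm: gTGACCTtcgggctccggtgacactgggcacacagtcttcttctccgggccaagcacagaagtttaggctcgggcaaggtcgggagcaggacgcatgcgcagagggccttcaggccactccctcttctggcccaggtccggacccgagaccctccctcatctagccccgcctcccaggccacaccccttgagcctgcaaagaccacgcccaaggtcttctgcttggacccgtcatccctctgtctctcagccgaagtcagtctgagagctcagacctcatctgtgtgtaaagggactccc
Cpt1a: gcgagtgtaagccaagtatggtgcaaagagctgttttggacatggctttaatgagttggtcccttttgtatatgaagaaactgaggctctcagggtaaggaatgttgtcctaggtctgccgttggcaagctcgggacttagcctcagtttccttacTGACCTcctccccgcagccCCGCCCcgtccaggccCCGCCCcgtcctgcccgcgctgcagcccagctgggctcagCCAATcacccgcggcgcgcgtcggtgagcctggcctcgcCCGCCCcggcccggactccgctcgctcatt
Cpt2: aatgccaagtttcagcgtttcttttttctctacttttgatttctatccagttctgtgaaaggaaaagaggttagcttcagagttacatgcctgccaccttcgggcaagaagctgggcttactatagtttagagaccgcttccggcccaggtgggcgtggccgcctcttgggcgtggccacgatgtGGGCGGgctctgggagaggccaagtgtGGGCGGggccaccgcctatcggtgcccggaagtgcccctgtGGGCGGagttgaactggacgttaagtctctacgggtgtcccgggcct
Fasn: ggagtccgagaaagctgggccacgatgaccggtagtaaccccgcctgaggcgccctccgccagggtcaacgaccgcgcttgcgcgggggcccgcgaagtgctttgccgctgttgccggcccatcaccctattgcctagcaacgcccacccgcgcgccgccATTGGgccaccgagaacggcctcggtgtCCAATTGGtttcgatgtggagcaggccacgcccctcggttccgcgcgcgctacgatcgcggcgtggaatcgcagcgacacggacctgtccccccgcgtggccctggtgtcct

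The Acadl window held 4 GC boxes and the Cpt1a window 3 GC boxes, 1 NF-Y box and 1 AGGTCA hexamer. The Cpt2 window held 3 GC boxes. The Acadm window held 1 AGGTCA hexamer, and the Fasn window 3 NF-Y boxes, of which a forward and a reverse match overlap in CCAATTGG. Over the 7 windows, 4 held a GC box, 2 an NF-Y box, 2 the hexamer, and 0 an E-box or a TATA box. Among all 32851 windows the shares were 35.7% with a GC box, 37.4% with an NF-Y box, 16.3% with the hexamer, 7.15% with an E-box and 13.6% with a TATA box. A match describes letters in the window only.

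A normalised signal is the spot's intensity above the blank spots, scaled so that the detected probes of an array have a median of 25. The arrays hold 23473 probes, with 72.2% to 85.1% of them above the blanks and 4360 to 5261 over a signal of 100. The positive controls, spotted 24 times each, gave a log2 SD of 0.13 between spots, so that 2 SD of a difference between 2 spots is 0.38 on the log2 scale. The SD was pooled over all arrays, and per control it ran from 0.080 in cd27cd28 to 0.21 in young IEL CD4+. The pooled value is thus too small for young IEL CD4+, and no spot error was estimated for dim probes. This yardstick holds spot error only, and leaves out mice, sorting and labelling. Signals of different probes are not compared, since probes differ in how well they bind. The T cell markers Cd3d (between 2495 and 3609.8) and Cd4 (between 361 and 892) were detected on every array.

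Cpt1a was brightest in SP CD4+ T cells of young mice and lower in old mice at both sites. In IEL its signal was 288 on the old CD4+ array, against 469 on the young CD4+ array. In SP it was 366 on the old array, against 640.0 on the young array. The log2 differences between old and young were -0.70 in IEL and -0.81 in SP, both past spot error and both under 2-fold. The old IEL fractions had 219 in cd27cd28 and 338 in others, so cd27cd28 had the lowest signal of the 6 arrays, and Cpt1a spanned 2.92-fold from the lowest array to the highest.

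Cpt2, the partner of Cpt1a at the inner membrane, was a dimmer probe that stayed under 100 on every array. Its signal was 77.6 in cd27cd28, 73.6 in others, 35.3 in old IEL CD4+, 55.4 in young IEL CD4+, 94.1 in old SP and 84.9 in young SP. Old IEL CD4+ T cells were lowest, with a gap of 0.65 on the log2 scale to the next array, young IEL CD4+. The 2 SP arrays and the cd27cd28 and others fractions followed each other in order with gaps within spot error.

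Acadl, the long-chain acyl-CoA dehydrogenase, was higher on every IEL array than on both SP arrays. Its signal was 1116 in cd27cd28, 875 in others, 688 in old IEL CD4+ and 563 in young IEL CD4+, against 270.2 in old SP and 241 in young SP. The IEL and SP arrays did not overlap, and the only gap past spot error in the order of the arrays was the 1.06 on the log2 scale between young IEL CD4+ and old SP. The scanner's local background beside the Acadl spot was between 94.5% and 100.1% of the spot's own intensity on the 6 arrays. The call between sites was lost after normexp, which corrects for that background and adds an offset of 50. The log2 differences were then 0.45 in old and 0.18 in young mice.

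Acadm, the medium-chain acyl-CoA dehydrogenase, ran the other way between sites. Its signal was 239 in cd27cd28, 327 in others, 235 in old IEL CD4+ and 203 in young IEL CD4+, against 385 in old SP and 363 in young SP. The 4 IEL arrays lay below both SP arrays, by a gap of 0.15 on the log2 scale, which is within spot error. Hadha, a subunit of the trifunctional protein, varied little, with 382 in cd27cd28, 359 in others, 262 in old IEL CD4+, 298 in young IEL CD4+, 253 in old SP and 280.5 in young SP. No neighbours in its order differed by more than spot error, and its whole span was 1.51-fold.

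Acaca, which makes the malonyl-CoA used for synthesis, had the narrowest span of the 10 genes, 1.44-fold. Its signal was 431 in cd27cd28, 377 in others, 299 in old IEL CD4+, 314 in young IEL CD4+, 343 in old SP and 308 in young SP. Fasn, the synthase itself, was dim and lower on each IEL array. Its signal was 31.1 in cd27cd28, 36.9 in others, 22.2 in old IEL CD4+ and 17.6 in young IEL CD4+, against 44.9 in old SP and 44.8 in young SP. The IEL and SP arrays of Fasn did not overlap, but the gap between them, 0.28 on the log2 scale, was within spot error.

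Scd2, the desaturase isoform found outside the liver, was higher in old than in young SP CD4+ T cells. In IEL its signal was 195 on the old CD4+ array, against 178 on the young CD4+ array. In SP it was 267 on the old array, against 139 on the young array, a 1.92-fold difference that lay just under the threshold of 2-fold. The old IEL fractions had 265 in cd27cd28 and 316 in others, and the 6 arrays spanned 2.28-fold. Scd1, the main liver isoform, was close to the detection limit, with 6.39 in cd27cd28, 4.82 in others, 4.84 in old IEL CD4+, 3.01 in young IEL CD4+, 3.74 in old SP and 2.84 in young SP. These spots lay between 2.33 and 6.15 SD of the blank spots above the blanks, and of the 96 negative control spots 1 on the young IEL array and 2 on the young SP array were as bright, so no order is read from Scd1.

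Fabp5, a carrier that binds fatty acids in the cytosol, had the widest span of the 10 genes, 6.96-fold, at low signal. Its signal was 42.3 in cd27cd28, 35.2 in others, 29.0 in old IEL CD4+ and 19.3 in young IEL CD4+, against 7.38 in old SP and 6.07 in young SP. The IEL and SP arrays did not overlap, with a gap of 1.39 on the log2 scale, and old IEL CD4+ was higher than young IEL CD4+ by 0.58. All of these signals were under 100, so the study's threshold could not call the gene.

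**Figure D1:**
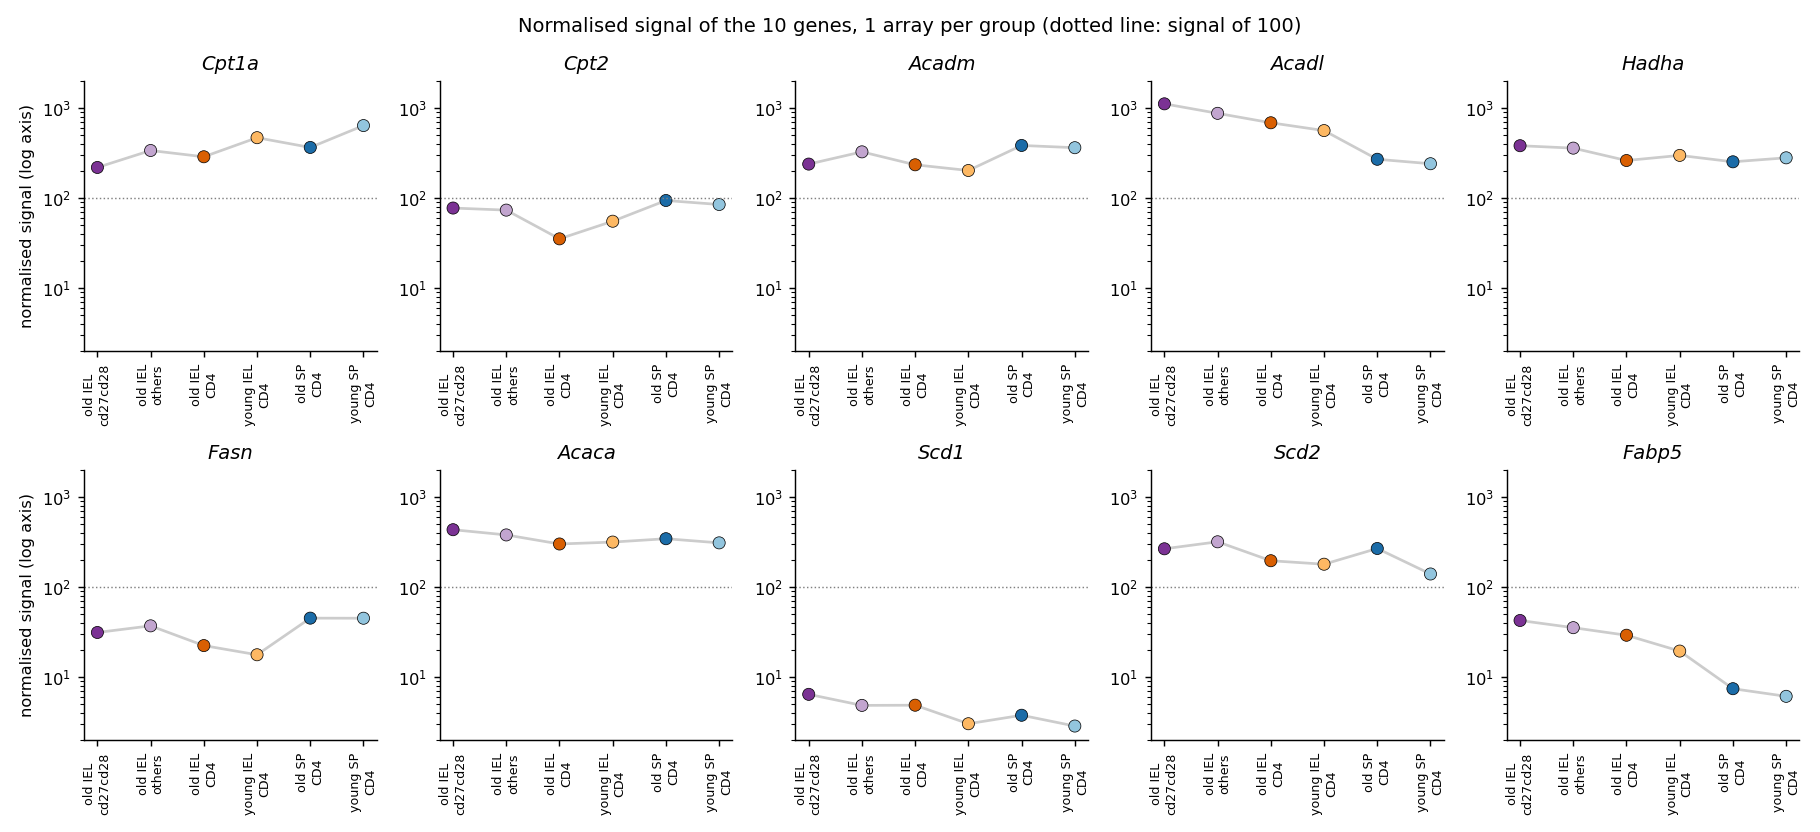
Normalised signal (log axis) of the 10 genes, 1 panel per gene and 1 point per array, with the old IEL fractions and IEL CD4+ T cells left of SP CD4+ T cells and a dotted line at a signal of 100. Acadl and Fabp5 step down between the 4 IEL arrays and the 2 SP arrays, Cpt1a is lower on the old than on the young array at both sites, and Acaca spans only 1.44-fold.

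The first question was how the genes differed with age. Calls needed a difference over 2-fold and a signal over 100, the thresholds of the study, with the signal read here on the brighter of the arrays. The age and site comparisons share arrays, as do the comparisons of the fractions. In each of the 7 comparisons 6 of the 10 genes were over 100 and so could be called. In old against young IEL CD4+ T cells 0 of the 10 were called, where 2.47% of all genes over 100 were called higher and 3.85% lower. The median log2 difference of the 10 genes was 0.17, against -0.09 for all 13753 genes detected on both arrays. Cpt1a (-0.70), Cpt2 (-0.65), Scd1 (0.68) and Fabp5 (0.58) were the members past spot error as numbers. Of these, Scd1 stood near the detection limit and differed by 0.13 with 16 added before log2 and by 0.05 after normexp. Under the same settings Fabp5 differed by 0.35 and 0.14, Cpt2 by -0.48 and -0.27, and Cpt1a by -0.67 and -0.69. With no signal minimum 0 members passed 2-fold, against 6.59% of all genes in either direction.

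In old against young SP CD4+ T cells 0 of the 10 were called as well, where 4.31% of all genes over 100 were called higher and 0.76% lower. The median of the members was 0.15, against 0.07 for all 15052 genes. Scd2 (0.94) was higher and Cpt1a (-0.81) lower, and Scd1 differed by 0.40 at its low signal. The other 7 members differed by 0.28 or less. With no signal minimum 0 members passed 2-fold, against 5.31% of all genes.

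Set side by side, the age differences of Cpt2 were -0.65 in IEL and 0.15 in SP, and those of Scd2 were 0.13 in IEL and 0.94 in SP. The age difference in IEL minus that in SP was -0.80 for Cpt2 and -0.81 for Scd2, against a median of -0.18 over 13553 genes. These values stood at percentiles 16.2 and 15.8 of those genes. The other 8 members lay between -0.22 and 0.34. After normexp the age differences of Cpt2 were -0.27 in IEL and -0.16 in SP, and those of Scd2 were -0.50 and 0.05. The Cpt1a age difference was alike at both sites, 0.10 apart. With 1 array per group these differences of differences were not tested.

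The second question was how IEL and SP CD4+ T cells differed. In old mice Acadl was the 1 member called, higher in IEL by 1.35 on the log2 scale (2.54-fold), where 4.65% of all genes over 100 were called higher in IEL and 12.7% lower. In young mice Acadl was again the 1 member called, higher by 1.22 (2.34-fold), where 8.05% of all genes were called higher and 9.62% lower. The medians of the members were -0.27 in old and 0.06 in young mice. Those of all genes detected on both arrays (14052 and 14137) were -0.46 and -0.28. Each array is scaled to a median of 25 over its own detected probes, and more probes were detected in SP than in IEL. The numbers were 19204 against 16947 in old and 18466 against 17351 in young mice. With quantile normalization the all-gene medians were -0.02 and -0.04, so no lower level of RNA in IEL is read from them.

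Fabp5, Fasn and Cpt2, all under a signal of 100, also passed 2-fold in at least 1 of these comparisons. Fabp5 was higher in IEL than in SP by 3.93-fold in old mice and by 3.18-fold in young mice. Fasn had 0.496 of the SP signal in old IEL CD4+ T cells and 0.393 of it in young ones. Cpt2 had 0.375 of the SP signal in old mice, with a log2 difference of -1.42, and -0.62 in young mice. With no signal minimum 4 members passed 2-fold in old mice (Acadl, Fabp5, Fasn and Cpt2), against 18.7% of all genes, and 3 in young mice (Acadl, Fabp5 and Fasn), against 16.5%. Acadm stayed under 2-fold, with -0.71 in old and -0.84 in young mice. Relative to the all-gene medians, Fabp5 stood at 2.43 in old and 1.95 in young mice, and Fasn at -0.56 and -1.07. Cpt2 then stood at -0.96 and -0.34, and Acadm at -0.26 and -0.56. With quantile normalization Fasn was at -0.60 in old and -1.10 in young mice, and Cpt2 at -1.01 and -0.43.

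Over the 4 IEL and 2 SP arrays together, 2 members (Acadl and Fabp5) were above and 3 (Cpt2, Acadm and Fasn) below the SP range on every IEL array, and 5 overlapped. Among 13533 genes detected on all 6 arrays, 9.09% were above on every IEL array and 16.8% below, which is the background for the counts of 2 and 3 of 10. Both counts depended on the processing. With quantile normalization Hadha and Scd1 joined Acadl and Fabp5 above the SP range, and after normexp Hadha and Fabp5 were above it, Cpt2, Fasn and Scd1 below it, and Acadl and Acadm overlapped. The IEL arrays are different groups and not replicates.

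**Figure D2:**
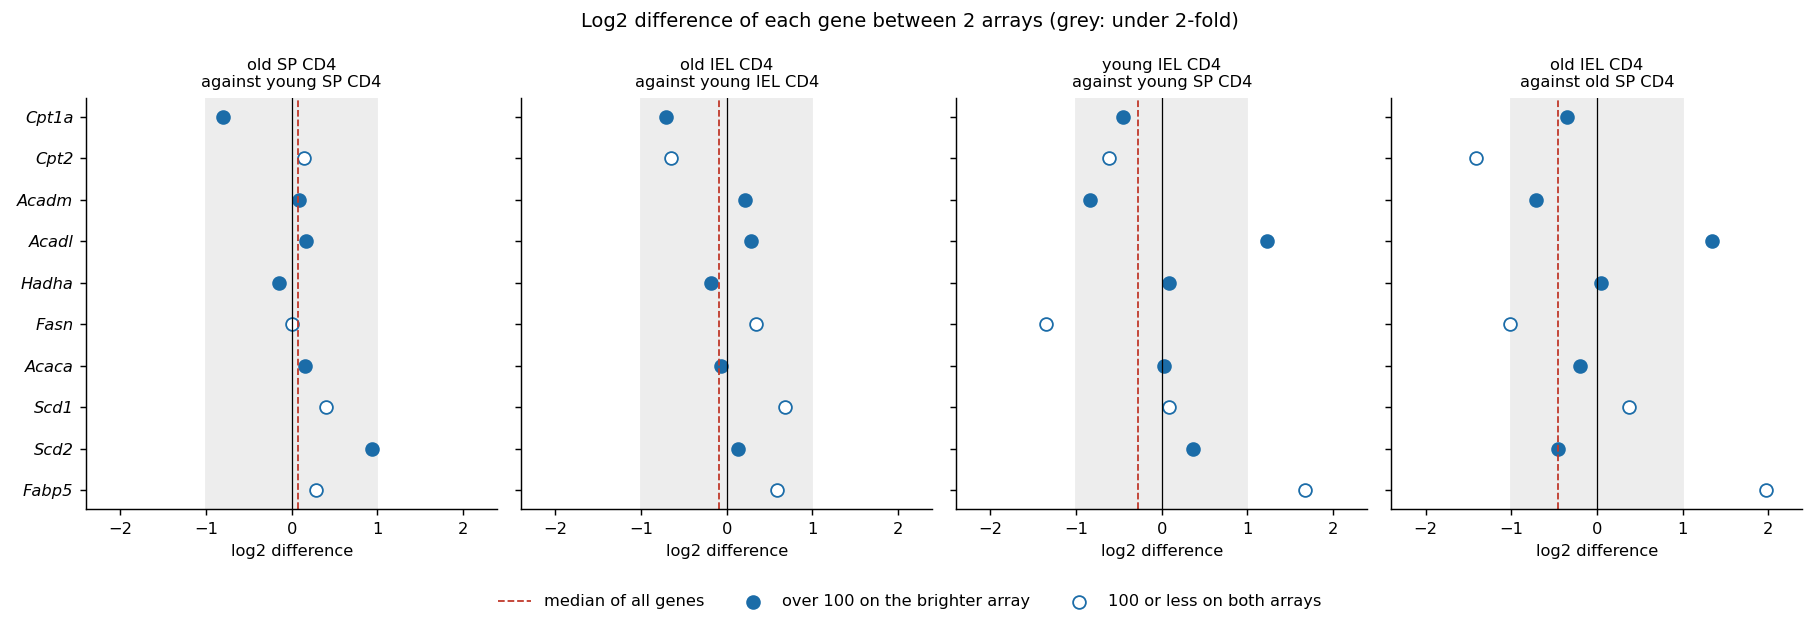
Log2 difference (horizontal axis) of each of the 10 genes in 4 comparisons, old against young at both sites and IEL against SP at both ages, with filled points for genes over a signal of 100, open points for dimmer genes, a dashed line at the median of all genes and grey for differences under 2-fold. Acadl is the 1 filled point outside the grey band, in both IEL against SP panels, while the age panels have 0 points outside it.

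The old IEL fractions were set against each other and against old IEL CD4+ T cells. In cd27cd28 against others 0 members were called, where 0.472% of all genes over 100 were called higher and 2.68% lower. The medians were 0.08 for the members and 0.08 for all 16016 genes, and 0 members passed 2-fold with no minimum, against 4.1% of all genes. Cpt1a was lower in cd27cd28 (219) than in others (338) by 0.63 on the log2 scale, and Acadm (239 and 327) by 0.45. Scd1, near the detection limit, differed by 0.41, and the other members by 0.35 or less.

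Against old IEL CD4+ T cells, cd27cd28 had 0 members called, where 9.7% of all genes were called higher and 1.28% lower. The fraction others had 0 members called, where 3.23% were called higher and 0.134% lower. For genes detected on both arrays the all-gene medians were 0.62 (14129 genes) in cd27cd28 and 0.54 (14169 genes) in others. Member medians were 0.51 and 0.40. With quantile normalization the all-gene medians were 0.04 and -0.02. Each array is scaled over its own detected probes, which were 19785 in cd27cd28, 19975 in others and 16947 in old IEL CD4+. Member differences are therefore better read relative to the all-gene medians of 0.62 and 0.54. On that footing Cpt1a was lower by 1.01 in cd27cd28 and by 0.31 in others, and Cpt2 was higher by 0.52 in both. Cpt2 was the 1 member to pass 2-fold with no signal minimum, in both fractions (1.14 and 1.06 on the log2 scale). Of all genes, 17% did so in cd27cd28 and 11.1% in others. The Cpt2 differences were 0.65 and 0.54 after quantile normalization. After normexp Cpt2 lay between 27.3 and 32.9 on all IEL arrays, so neither difference passed 2-fold. Its local background was 70.4% of the spot in cd27cd28, 74.0% in others and 78.1% in old IEL CD4+.

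The split of calls over all genes depended on scaling. With quantile normalization, 136 of the calls in old against young IEL CD4+ T cells were higher and 136 lower, against 101 higher and 157 lower with the scaling used here. In young IEL against SP the share of higher calls was 56.8%, against 45.6%, and in old IEL against SP 53.1%, against 26.8%. In cd27cd28 against old IEL CD4+ it was 22.6%, against 88.3%, and in others against old IEL CD4+ 60.3%, against 96.0%. The all-gene medians then lay between -0.05 and 0.08. Of the members called or past spot error at a signal over 100 between ages or sites, none changed direction under that scaling: Acadl was higher in IEL by 1.64 in old and 1.29 in young mice, Cpt1a lower with age by 0.56 in IEL and 0.93 in SP, and Scd2 higher with age in SP by 0.87.

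Normexp changed more values than scaling did. Of the 70 member differences, 50 moved by more than 1 SD of a difference between spots after normexp, against 33 with quantile normalization. Normexp here also adds an offset of 50, which draws dim signals together. With 16 added before log2 and no change of background, 15 of the 70 moved. The parts of background and offset in the normexp values were not separated. On every array the spot and its local background were correlated over all probes (Pearson r between 0.96 and 0.98 of log2 values), so that the background beside a spot followed the spot. It was lowest relative to the spot for Cpt1a, between 31.9% and 41.6%, and Acaca, between 28.1% and 63.8%. For Fabp5 it was between 80.3% and 89.3%, for Fasn between 82.1% and 91.6%, and for Acadl it reached the spot itself. After normexp, a correction that models signal above the local background, Acadl was at 30.1 in old IEL and 22.1 in old SP CD4+ T cells, and at 27.9 in young IEL and 24.6 in young SP. The added offset of 50 alone stands at 13.2 to 14.5 on that scale, and Scd1, near the detection limit, at 22.3 to 23.6. The log2 differences of Acadl were then 0.45 in old and 0.18 in young mice, and the IEL and SP arrays overlapped.

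Fabp5 between sites was at 0.15 in old and 0.01 in young mice after normexp. With 16 added before log2 and no change of background it was at 0.94 and 0.68. Fasn between sites was at -0.08 in old and -0.18 in young mice, and Cpt2 at -0.46 in old and -0.35 in young mice. Scd2 in SP differed with age by 0.05. Acadm turned to 0.83 higher in young IEL than in young SP CD4+ T cells, while it stayed lower in old IEL (-0.75), and with age it was 2.01-fold higher in SP (79.6 in old and 39.7 in young mice) and at -0.57 on the log2 scale in IEL. Hadha was at 0.93 in old IEL against SP. Acaca was at 0.64 with age in SP and at 0.70 in young IEL against SP. Cpt1a stayed lower with age, at -0.69 in IEL and -0.50 in SP, but turned to 0.10 in young IEL against SP. Which of the background estimates is nearer to the true level was not tested.

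**Figure D3:**
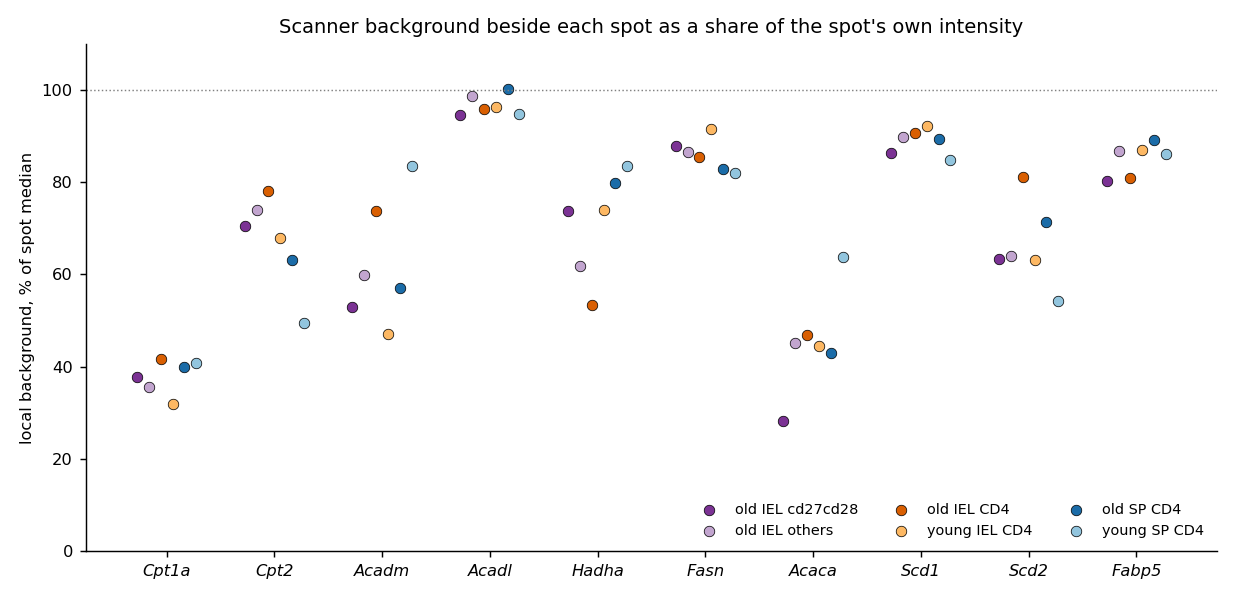
Local background beside each spot as a percentage of the spot median (vertical axis), for the 10 genes with 1 point per array. Acadl lies between 94.5% and 100.1% on all 6 arrays, and Cpt1a between 31.9% and 41.6%.

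**Figure D4:**
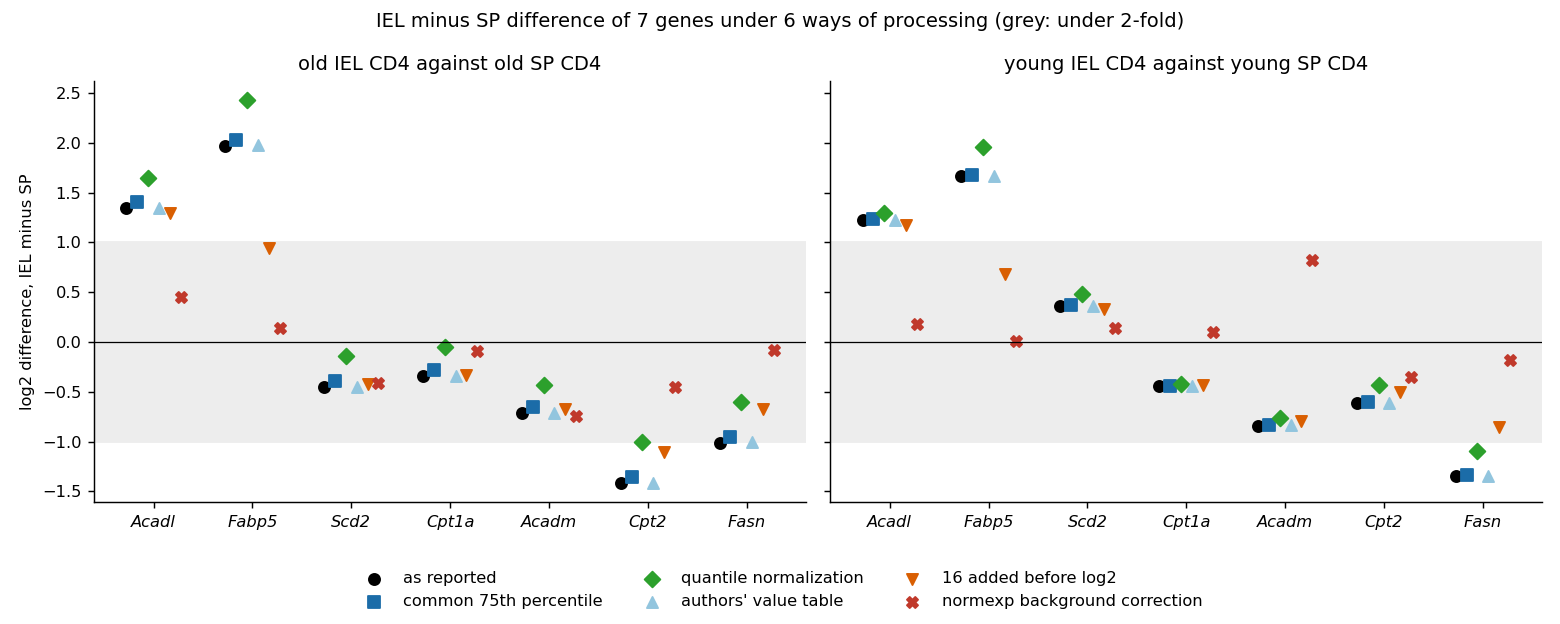
Log2 difference of IEL minus SP CD4+ T cells (vertical axis) for 7 of the genes in old mice (left) and young mice (right), with 1 marker per way of processing the arrays and grey for differences under 2-fold. The Acadl difference is 1.35 in old and 1.22 in young mice as reported, and 0.45 and 0.18 after normexp background correction.

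Beyond the 10 genes, 116 genes of the wider pathway were listed, 110 of which have a named probe, and the median over all of them was close to that of all genes. Over the 7 lists together it was -0.08 in old against young IEL CD4+ T cells and 0.10 in old against young SP (all genes -0.09 and 0.07). It was -0.44 in old and -0.21 in young IEL against SP (all genes -0.46 and -0.28). In the fractions it was 0.06 in cd27cd28 against others, 0.65 in cd27cd28 against old IEL CD4+ and 0.58 in others against old IEL CD4+ (all genes 0.08, 0.62 and 0.54).

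In old mice 2 of 29 listed genes over 100 were called higher in IEL than in SP and 2 lower (all genes 4.65% and 12.7%), and in young mice 4 of 31 were called higher and 2 lower (all genes 8.05% and 9.62%). Plin2, Hilpda and Lipa, of the storage and lipolysis list, were called at both ages. Plin2, which coats lipid droplets, had 221 in old IEL against 105 in old SP CD4+ T cells, and 162 in young IEL against 43.4 in young SP. Hilpda, a droplet protein that inhibits lipolysis, had 139 in old IEL against 58.1 in old SP, and 219.8 in young IEL against 72.7 in young SP. Lipa, the lysosomal acid lipase, ran the other way, with 85.8 in old IEL against 285 in old SP, and 143 in young IEL against 344 in young SP. With quantile normalization these differences between sites kept their directions (Plin2 1.45 and 2.04 in old and young mice, Hilpda 1.61 and 1.73, Lipa -1.40 and -1.17). After normexp Hilpda stood at 0.58 in old and 1.32 in young mice and Lipa at -0.33 and -1.25, while Plin2 stood at -0.40 and 0.31 and so changed direction in old mice, where its local background was 85.6% of the spot in IEL and 51.9% in SP.

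Single calls in young IEL against SP were Dgat1, the last enzyme of triglyceride synthesis (122 against 35.9), Acsbg1, an acyl-CoA synthetase (104 against 18.7), and Acad10 (46.8 against 119). After normexp Dgat1 was at 0.24 (1.77 as reported), Acsbg1 at 1.12 (2.47) and Acad10 at -0.10 (-1.35). In old IEL against SP the regulator Scap, the escort of the SREBP factors, was lower (104 against 209), at the threshold, with a log2 difference of -0.65 after quantile normalization and -0.84 after normexp. Plin2 was the 1 listed gene of 29 over 100 called with age in SP (105 in old against 43.4 in young mice, with a log2 difference of 1.27, or 0.58 after normexp), and 0 of 29 were called with age in IEL. Lipa was the 1 gene of 31 called in cd27cd28 (174) against others (84.2), with a log2 difference of 1.05, or 0.50 after normexp. Against old IEL CD4+ T cells, cd27cd28 had 5 of 29 called higher (Eci1, Eci2, Acot8, Acss2 and Lipa, between 2.03-fold and 2.23-fold) and 0 lower, where 9.7% of all genes were called higher and 1.28% lower and all genes were shifted by 0.62, and others had 0 of 30 called. With quantile normalization, which takes that shift out, these 5 differences were between 0.52 and 0.68, under 2-fold, and after normexp they were between -0.06 (Acss2) and 1.32 (Eci2).

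By list, the carnitine shuttle had 0 of 4 genes over 100, with signals of 12.5 or less. Its median in IEL against SP, over 3 genes at each age, was -0.99 in young and -0.09 in old mice. It was below that of all genes in young mice (-0.28) and above it in old mice (-0.46). The 3 genes were not the same at the 2 ages, since Cpt1c was not detected in old IEL and Crat not in young SP CD4+ T cells. These medians therefore do not compare the ages. Mitochondrial beta-oxidation had a median of -0.28 in old against young IEL and -0.06 in old against young SP (all genes -0.09 and 0.07). The other lists lay between -0.23 (carnitine shuttle) and 0.05 in IEL, and between -0.08 and 0.37 (regulators) in SP. Among the mitochondrial beta-oxidation genes Hadhb, the partner subunit of Hadha, had 1009 in old IEL and 989.7 in young IEL CD4+ T cells. In SP it had 1216 in old and 1348 in young mice. Peroxisomal beta-oxidation had medians of -0.77 in old and -0.59 in young IEL against SP, and synthesis, elongation and desaturation -0.65 and -0.33. Uptake, binding and activation had -0.36 and -0.10, and the regulators -0.55 and -0.21. Mitochondrial beta-oxidation had -0.37 and -0.10 between sites, and storage and lipolysis -0.39 and -0.33. All genes stood at -0.46 in old and -0.28 in young IEL against SP. None of these medians was tested.

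Markers of other cells differed between the arrays. The summed signal of 15 gut epithelium markers was 493 in cd27cd28, 2643 in others, 374 in old IEL CD4+, 832 in young IEL CD4+, 383 in old SP and 288 in young SP, and between 10 and 15 of them were detected. The array of others stood apart with Reg3b at 1052 and Krt8 at 375, while Epcam reached 58.5. Not every marker was higher there. Alpi (39.7), Lgals4 (108) and Apoa4 (6.63) were lower in others than in cd27cd28 (44.7, 123 and 6.68), and Alpi was brightest in old SP (122). Reg3b was also the largest part of the young IEL CD4+ sum, at 446 against 15.1 in old IEL CD4+. Acadl and Fabp5 were brightest in cd27cd28 (epithelial sum 493) and next brightest in others (2643). What epithelial RNA adds to their signals was not tested. The epithelial carrier Fabp1 was between 18.0 and 59.6. The epithelial carrier Fabp2 was higher on every IEL array than in SP, as Fabp5 was. Its signal was 39.6 in cd27cd28, 93.3 in others, 74.8 in old IEL CD4+ and 10.9 in young IEL CD4+. In old SP it was 2.67, and in young SP it was not detected. Myeloid markers summed to 1130 in cd27cd28, 1601 in others, 706 in old IEL CD4+, 427 in young IEL CD4+, 524 in old SP and 400.1 in young SP, with Cst3 the largest part in cd27cd28 (951), old IEL CD4+ (595), young IEL CD4+ (257), old SP (350.1) and young SP (277). Lyz2 was at 711 in others and lowest in cd27cd28 (12.2), and Itgam, Fcgr1 and Mpeg1 were detected on 0 arrays. Adipocyte markers summed to between 13.8 and 29.9, B cell markers to between 111 and 178, stromal and endothelial markers to between 36.4 and 167, and erythroid markers to between 22.2 and 56.1. Cd8a was 1759 in cd27cd28, 1483 in others, 1535 in old IEL CD4+, 128 in young IEL CD4+, 11.4 in old SP and 17.8 in young SP. Cd8b1 was 610 in cd27cd28, 554 in others, 231 in old IEL CD4+, 643 in young IEL CD4+, 321 in old SP and 465 in young SP. The part of these differences in the values of the 10 genes was not tested.

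The genes most like each member over the 6 arrays were found by Pearson r of log2 signals among 2323 to 2324 genes detected on all 6 arrays, over 100 on at least 1 of them and spanning at least 1 log2 unit. Acadl was most like Mbd2 (r 0.999) and Cntrob (0.998), and Fabp5 most like Gpr34 (0.999) and Itga1 (0.998), an integrin of tissue-resident T cells. Such likeness was common for these genes, with 174 candidates over 0.95 for Acadl and 146 for Fabp5. Cpt1a had 2 candidates over 0.95, Smc6 (0.975) and Naa15 (0.953), and Scd2 had 5, led by Slc16a3 (0.968) and H2-DMa (0.966). The leading genes were Nomo1 (0.994) and Krtap4-16 (0.989) for Cpt2, Tmem131 (0.996) and Poglut1 (0.981) for Acadm, and Fahd2a (0.992) and Anapc13 (0.989) for Hadha. They were Gstk1 (0.988) and Rpl21-ps13 (0.985) for Fasn, Ercc1 (0.996) and Csmd2 (0.994) for Acaca, and Apbb1 (0.993) and Ubxn4 (0.990) for Scd1. With 6 points, and array scaling and background shared by all genes, these values describe the arrays only.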

How the data were processed

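Toray 3D-Gene mouse 24k arrays with 1 dye (Cy5, 635 nm) were scanned at 3 gains, which the scanner software merged. The deposited scanner files give the median intensity of each spot and, apart from it, of its surroundings, without subtraction. The authors also deposited a table of normalised intensity (global normalization, median of 25 per array). Its exact detection rule is not given in the sources used here. It was rebuilt: the mean of 384 blank spots, with 5% left out at each end, was subtracted, probes over 2 SD above it counted as detected, and each array was scaled to a median of 25 over detected probes. The rebuilt values differed from those of the authors by a median of 0.00369 to 0.00972 on the log2 scale, and the sources disagreed on detection for 18 to 54 probes of an array. Names came from the array design for 20690 probes, and several probes for 1 gene were averaged as log2 values. No file names a genome build.

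The 7 comparisons are log2 differences between 2 arrays over genes detected on both. Calls needed over 2-fold and a signal over 100, the thresholds of the study, with the signal read here on the brighter array. All 10 members were named in every comparison, and from each wider list up to 3 called genes per comparison. The members and lists were chosen with earlier results of these data known. Fabp1, Fabp2, Reg3b, Krt8, Epcam, Alpi, Lgals4, Apoa4, Lyz2, Cst3, Cd3d, Cd4, Cd8a, Cd8b1, Hadhb, Cpt1c, Crat and, in young IEL against SP, Lipa were named after their values were seen. Listed genes with no named probe here were left out. Spot error came from 2 positive controls with 24 spots each. The number of arrays limits the precision. Alternatives were quantile normalization, a common 75th percentile, 16 added before log2, normexp (limma 3.58.1, R 4.3.3, offset 50), the lowest detected signal for undetected probes, the authors' table, the brightest probe per gene, a signal minimum of 0 or 200, and a 3-fold threshold. Settings for the called genes of the wider lists were added after seeing the data. The steps were tested on simulated data. Python 3.11.15, numpy 2.4.6, pandas 2.3.3 and matplotlib 3.10.9 were used.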

Additional observations from a re-analysis of the deposited data

Results flagged for a closer look

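The difference of Scd2 between sites ran in opposite directions at the 2 ages. Scd2 was lower in IEL than in SP CD4+ T cells of old mice (195 against 267, log2 difference -0.45) and higher in IEL than in SP CD4+ T cells of young mice (178 against 139, log2 difference 0.36). The difference between these differences was -0.81, and it was not tested, since each group has 1 array. The young difference was within the spot error of 0.38. The old difference is close to the shift of all genes between these arrays (median -0.46), and with quantile normalization it was -0.15, within spot error.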

How the results depend on the processing

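No paired analysis was possible because each group has 1 array, and for the same reason no array could be left out in turn. Acadl was called higher in IEL than in SP CD4+ T cells at both ages under quantile normalization, the common 75th percentile, 16 added before log2, the authors' table, the brightest probe per gene, the lowest detected signal for undetected probes and a signal minimum of 200. With normexp 0 members were called at either age, and with a 3-fold threshold 0. With no signal minimum 4 members were called in old and 3 in young mice for IEL against SP, and 1 each in cd27cd28 and in others against old IEL CD4+ T cells, where 0 were called with the minimum of 100. The median of the members moved by more than 1 SD of a difference between spots (0.19) in these cases. With quantile normalization it was 0.021 in old IEL against SP (reported -0.27), -0.012 in cd27cd28 against old IEL CD4+ (0.51) and -0.038 in others against old IEL CD4+ (0.40). With normexp it was -0.023 in old against young IEL (0.17), -0.061 in old IEL against SP (-0.27), 0.12 in cd27cd28 against old IEL CD4+ (0.51) and 0.055 in others against old IEL CD4+ (0.40). Of the 70 member differences, quantile normalization turned the sign of 11, of which 3 were past spot error as reported, the 75th percentile 2 (0 past spot error), normexp 18 (7 past spot error) and the other settings 0. Quantile normalization moved the all-gene median to -0.02 in old IEL against SP, to 0.04 in cd27cd28 against old IEL CD4+ and to -0.02 in others against old IEL CD4+, and against it Acadl stood at 1.66 in old IEL against SP. After normexp only 1 or 2 members were over 100 in a comparison, so fewer could be called. Signal over background limits Scd1, Fasn, Fabp5 and Acadl.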
